A study of Mus musculus with 12 samples.

Results

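The replication-dependent histone genes of the mouse lie in a few dense clusters, and open chromatin around them was read from peak lists of embryonic stem cells. Members were chosen from RefSeq's GRCm38.p6 gene table by symbol and position: symbols starting with H1f, H2ac, H2bc, H3c or H4c (or the older Hist), on chromosome 13 between 21.6 and 23.9 Mb, on chromosome 3 between 96.2 and 96.3 Mb, or on chromosome 11 between 58.9 and 59 Mb. The rule found 63 genes of 49943 in the table: 6 of the linker histone H1, 18 of H2A, 15 of H2B, 12 of H3 and 12 of H4. Of these, 53 lie on chromosome 13 and 10 on chromosome 3. None lies on chromosome 11, where the histone genes of the interval carry other symbols (H2bu2, H2bu1-ps, H2aw and H3f4). The table lists 61 members as protein-coding and 2, H2ac14 and H2ac5-ps, as pseudogenes.

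The cells were BL6xCAST embryonic stem cells with a synthetic sequence integrated on chromosome X, synHPRT1 in one genotype and synHPRT1R, its reversed form per the series title, in the other. All libraries came from cells with an integrated construct, so no cells without one entered the comparisons. Each genotype had 6 libraries, from 2 clones with 3 replicates each, and all were cultured on gelatin in mixed 2i and serum-containing medium with LIF. The assay was ATAC-seq, in which Tn5 transposase cuts accessible DNA; it was done on bulk cells, so more cells open at a site and a more open site per cell cannot be told apart. Whether the replicates of a clone were separate cultures is not in the labels, so each p-value measures a spread among libraries that may be technical.

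Canonical histones are made in bulk during S phase to package newly copied DNA. Their short, mostly intronless genes give RNAs that end in a stem-loop, bound by Slbp, in place of a poly(A) tail. Transcription takes place at the histone locus body, a nuclear body built on Npat, which is activated by cyclin E with Cdk2. H2A, H2B, H3 and H4 form the nucleosome core, and H1 binds the linker DNA where it enters and leaves the core.

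The start regions of the members carried motifs that differed by histone type. RefSeq's GRCm38.p6 start windows, 250 bases before to 50 after a gene start, matched 56 of the 63 members with 57 windows, since H2bc6 has 2 annotated starts. A CCAAT box (CCAAT), the site of the factor NF-Y, was found on either strand in every one of the 6 H1, 16 H2A, 14 H2B and 10 H3 windows, but in 3 of 11 H4 windows (27.3%), against 37.4% of all 32851 windows of the table. The H1 box (AAACACA) was in 5 of 6 H1 windows and in 7.18% of all windows. It began 122 to 112 bases before the H1 starts. The core of the H4 element bound by Hinfp (GGTCCG) was in 10 of 11 H4 windows, against 8.25% of all windows. An E2F core (TTCCCGC) was in 5 of 11 H4 windows and in no window of the other types, against 4.60% of all. The octamer (ATTTGCAT), the site of Pou2f1, was in 6 of 14 H2B and 5 of 16 H2A windows and in none of H1, H3 or H4, against 1.74% of all. Where an H2A and an H2B gene start back to back, their windows overlap and some matches are the same site. A TATA box (TATAAA) was in 32 of 57 member windows (56.1%), against 13.6% of all. These matches were counted anywhere in the window. Their median position from the start was -30.5 in H1 and -31 in H2A, but -89.5 in H3, -79.5 in H4 and -194 in H2B. A match is a description of letters, not of a bound site.

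**Figure D1:**
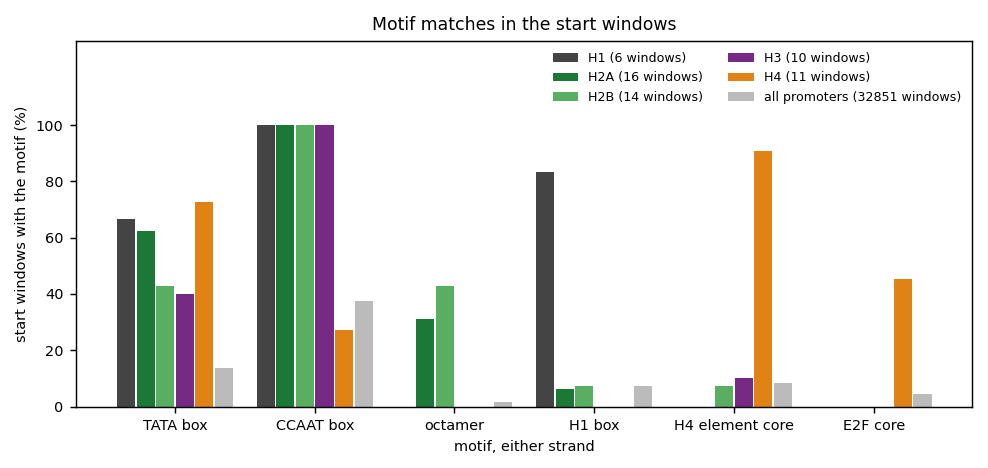
The bars give the percent of start windows (vertical axis) that hold each motif on either strand (horizontal axis), for the 5 histone types and for all 32851 windows of the table in grey. CCAAT is at 100% in H1, H2A, H2B and H3 and at 27.3% in H4, while the H1 box stands out in H1 and the H4 element core and E2F core in H4.

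The 200 bases before the starts of 4 H1 genes are shown because the H1 members differed most in peak presence (GRCm38.p6, from RefSeq, 5′ to 3′ along the gene; capitals mark matches to the 6 motifs on either strand). H1f2 and H1f4 had a peak in all 12 libraries, H1f1 in 9 and H1f6 in 1. H1f6, the testis linker histone, has the H1 box and the CCAAT box in the same order as H1f2, and H1f1 has no exact H1 box.
H1f2 (chr13:23738607-23738806, plus strand): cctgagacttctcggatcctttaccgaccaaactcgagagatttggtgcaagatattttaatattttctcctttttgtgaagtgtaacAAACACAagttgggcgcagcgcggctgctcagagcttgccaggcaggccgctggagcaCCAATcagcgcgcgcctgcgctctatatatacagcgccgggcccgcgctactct
H1f4 (chr13:23622559-23622758, minus strand): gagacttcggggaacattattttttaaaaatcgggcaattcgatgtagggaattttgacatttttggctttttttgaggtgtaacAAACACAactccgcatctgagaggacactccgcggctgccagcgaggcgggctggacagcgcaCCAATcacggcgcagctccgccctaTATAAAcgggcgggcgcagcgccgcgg
H1f1 (chr13:23763468-23763667, plus strand): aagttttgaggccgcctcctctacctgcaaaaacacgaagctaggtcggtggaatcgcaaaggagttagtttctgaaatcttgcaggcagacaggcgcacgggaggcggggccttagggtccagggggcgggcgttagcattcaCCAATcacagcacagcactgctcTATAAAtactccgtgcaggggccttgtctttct
H1f6 (chr13:23695611-23695810, plus strand): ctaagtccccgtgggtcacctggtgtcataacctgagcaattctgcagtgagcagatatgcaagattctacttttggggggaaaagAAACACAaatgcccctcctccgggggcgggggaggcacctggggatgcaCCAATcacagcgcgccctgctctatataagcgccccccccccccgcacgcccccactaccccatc

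For H2A, H3 and H4 the member with the highest in-list level is shown in the same way, for H3 and H4 also the one with the lowest, H3c11 and H4c2. H2bc12 is shown as a divergent gene with an octamer, its start 178 bp from that of H2ac12 on the other strand, and H4c11, the second highest H4 gene, for its E2F core. The capitals at the end of H4c11 begin a TATA box match that runs past the start, and the H4 element core of H4c2 begins 6 bases after its start and so lies outside the stretch shown. In H3c11 a reverse match to the H4 element core overlaps a CCAAT box.
H2ac6 (chr13:23683960-23684159, minus strand): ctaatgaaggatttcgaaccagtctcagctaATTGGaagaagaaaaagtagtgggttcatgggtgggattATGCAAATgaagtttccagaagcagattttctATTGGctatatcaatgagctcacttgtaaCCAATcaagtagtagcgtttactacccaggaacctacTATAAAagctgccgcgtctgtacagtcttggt
H2bc12 (chr13:22035621-22035820, plus strand): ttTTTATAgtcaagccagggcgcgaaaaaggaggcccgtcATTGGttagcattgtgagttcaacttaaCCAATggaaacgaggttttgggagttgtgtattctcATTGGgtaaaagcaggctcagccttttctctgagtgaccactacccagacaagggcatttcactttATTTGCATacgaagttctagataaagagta
H3c6 (chr13:23562386-23562585, minus strand): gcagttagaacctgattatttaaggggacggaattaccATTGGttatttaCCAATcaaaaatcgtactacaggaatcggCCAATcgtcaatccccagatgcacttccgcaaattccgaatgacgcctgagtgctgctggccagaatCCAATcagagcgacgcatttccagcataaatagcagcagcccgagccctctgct
H3c11 (chr13:21783398-21783597, minus strand): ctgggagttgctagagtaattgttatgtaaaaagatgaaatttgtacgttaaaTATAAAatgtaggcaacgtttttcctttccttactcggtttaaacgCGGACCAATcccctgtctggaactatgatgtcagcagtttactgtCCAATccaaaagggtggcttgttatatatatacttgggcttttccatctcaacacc
H4c3 (chr13:23698459-23698658, minus strand): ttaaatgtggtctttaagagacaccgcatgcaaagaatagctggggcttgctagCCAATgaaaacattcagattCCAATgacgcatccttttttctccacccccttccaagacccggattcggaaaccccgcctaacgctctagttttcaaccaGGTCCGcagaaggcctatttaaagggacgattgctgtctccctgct
H4c11 (chr13:21734834-21735033, plus strand): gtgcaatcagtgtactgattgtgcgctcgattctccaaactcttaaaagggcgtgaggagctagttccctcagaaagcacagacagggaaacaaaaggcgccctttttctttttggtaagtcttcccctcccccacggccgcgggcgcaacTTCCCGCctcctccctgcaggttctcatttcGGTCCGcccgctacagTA
H4c2 (chr13:23756737-23756936, plus strand): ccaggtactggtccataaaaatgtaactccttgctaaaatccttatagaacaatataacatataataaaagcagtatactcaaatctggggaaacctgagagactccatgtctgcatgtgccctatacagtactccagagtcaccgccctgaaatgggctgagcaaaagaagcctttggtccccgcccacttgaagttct

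Nearly all members had a peak within 1 kb in nearly every library. The 12 lists held 38400 to 63702 peaks (median 47570) on chromosomes 1 to 19, X and Y, and 59 to 63 members (median 61.5) had a peak in each. In all 12 libraries 58 of the 63 members had one, in 1 to 11 libraries 5 had one, and no member was without a peak in every library. The same count over all genes of the table was 33.8% and over other protein-coding genes 58.3%. Over other protein-coding genes of at most 1 kb, which are as short as most members, it was 3.22% (49 of 1521 genes). That short set was matched on length alone, not on gene family or activity. Members lie close together, so a peak near one often counted for its neighbours. There were 735 member and library combinations with a peak. In 567 of them (77.1%) the strongest peak also lay within 1 kb of a member of another type. A peak shared by several members counts once for each of them. The peaks merged into 48 regions, 37 of them present in all 12 libraries and 28 near 2 or more members. The regions present in all 12 were 690 to 3104 bp wide (median 1415). The widest, chr13:21809248-21812351, holds H2bc23, H2ac23 and H4c17.

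The other genes of the same intervals were listed far less often. Per library, 97.2% ± 1.81 (SD, n = 12) of members had a peak and 42.2% ± 2.76 of the 217 other genes, a difference of 55.0 percentage points (50.3 to 58.8) that had the same sign in 12 of 12 libraries (exact sign-flip permutation test over libraries, two-sided, p = 0.000488, the smallest it can give). Of those 217 genes, 61 had a peak in all 12 libraries and 104 in none. The vomeronasal receptor genes and pseudogenes (Vmn1r), a family of sensory neurons with 75 entries here, had no peak in any library for 71 and a peak in all 12 for 1. The transfer RNA genes of the interval, which RNA polymerase III transcribes, were listed in all 12 libraries for 42 of 79 and in none for 3.

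The peaks of the members were wide and of middling fold. The deposited fold of a peak compares it with its local background and is comparable only within a list, so each member's strongest peak is given as an in-list percentile: the percent of the library's peaks with a lower fold. Over the members listed in all 12 libraries the median percentile was 56.9 ± 6.09 (SD, n = 12), against 80.8 ± 2.91 over the 12732 other protein-coding genes listed in all 12. The difference of -23.9 had the same sign in 12 of 12 libraries (exact sign-flip permutation test, p = 0.000488). The strongest peak was 1028 ± 142 bp wide for members and 775 ± 69.7 bp for the other genes, wider for members by 253 bp in 12 of 12 libraries (exact sign-flip permutation test, p = 0.000488). Against the 49 short coding genes alone, which were at 72.9, the percentile of the members was again lower in 12 of 12 libraries, and the width was larger by 302 bp in 12 of 12. Being listed in all 12 libraries kept 58 of the 63 members, 58.3% of other coding genes and 3.22% of the short ones. The comparison sets were thus selected more strongly than the members, and what this adds to the differences was not tested. Ranked by the deposited p-value instead of the fold, the members were at 72.7 and the other coding genes at 81.5, a difference of -8.75 points. Among peaks of −log10 q-value 5 or more alone, the fold percentiles were 38.6 and 77.5, a difference of -38.9, and both kept the sign in 12 of 12 libraries.

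**Figure D2:**
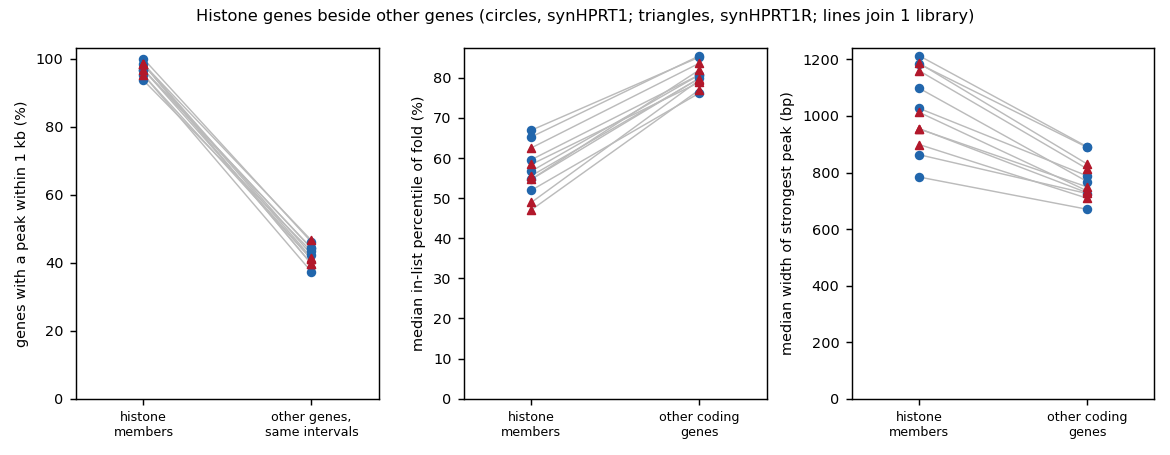
Each point is 1 of 12 libraries and each line joins the values of 1 library; the panels show the percent of genes with a peak within 1 kb, the median in-list percentile of fold and the median width in bp. In every library the members were listed more often than the other genes of their intervals. Among genes listed in all 12 libraries, the strongest peaks of members were lower in percentile and wider than those of other protein-coding genes.

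The 2 genotypes did not differ detectably at the members. In synHPRT1, 61 ± 1.41 members (SD, n = 6) had a peak and in synHPRT1R 61.5 ± 0.837 (exact permutation test of 6 against 6, two-sided, p = 0.632). The mean percentile over members was 53.7 ± 5.57 for synHPRT1 and 51.9 ± 4.67 for synHPRT1R (p = 0.565, exact permutation test), with clone means of 54.1 and 53.2 against 51.9 and 51.8. The median width was 1010 ± 161 bp and 1013 ± 120 bp (exact permutation p = 0.974). With the clone as the unit, 2 against 2, no exact test could reach a p below 0.33. Fisher's exact test per gene on presence was run over the 9804 genes with a peak in 1 to 11 libraries: 23 (0.235%) had an unadjusted p under 0.05 and 0 (0%) after Benjamini-Hochberg adjustment. Of the 5 members in that test, 0 had an unadjusted p under 0.05. A gene listed in all 6 libraries of one genotype and none of the other has p = 0.00216 in this exact test, so an adjusted p under 0.05 would have needed 425 such genes.

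**Figure D3:**
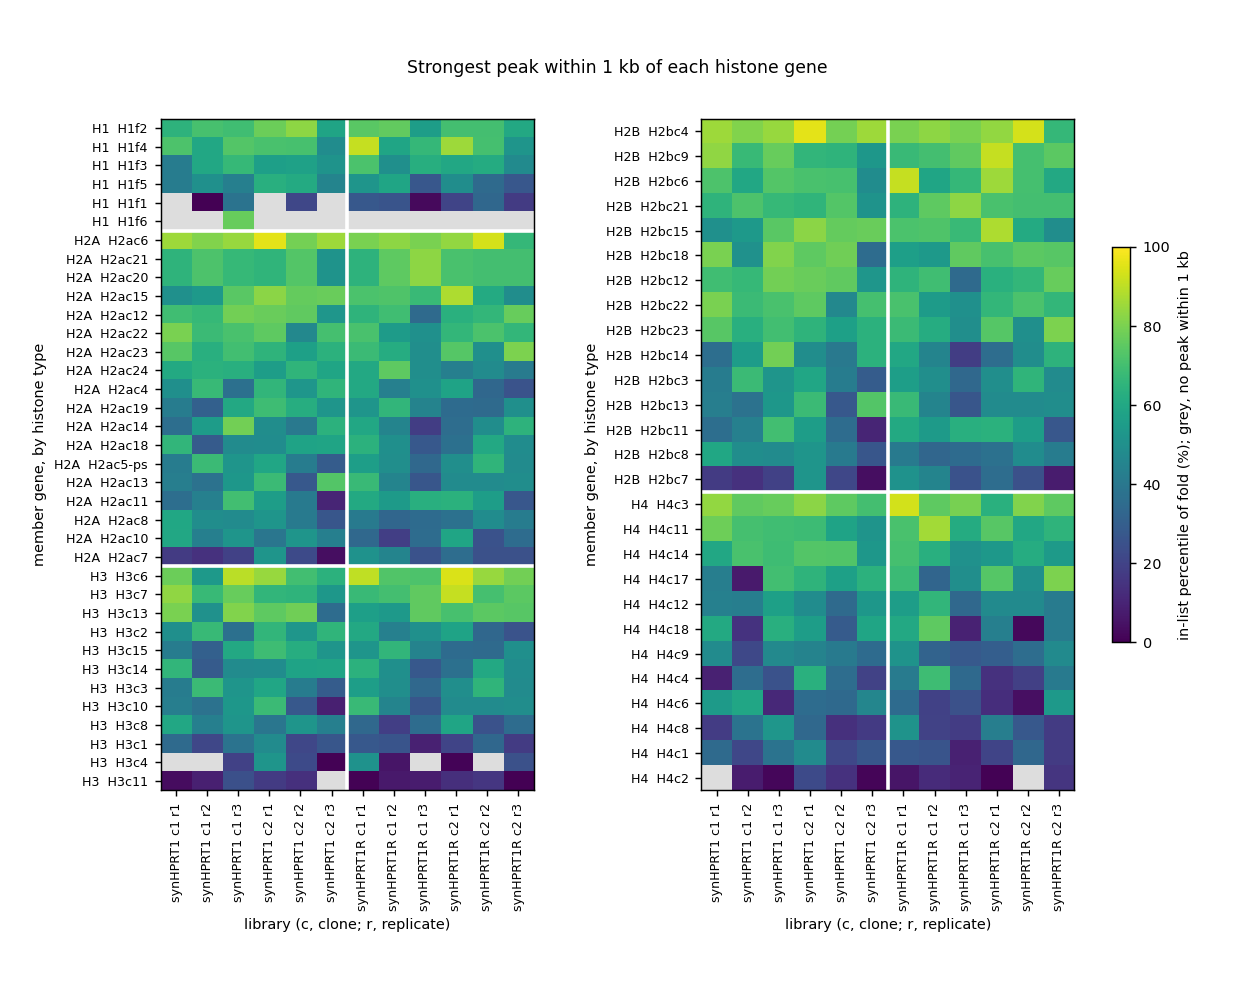
Rows are the 63 members by histone type and columns the 12 libraries (c, clone; r, replicate); colour is the in-list percentile of fold of the strongest peak within 1 kb, and grey marks a member with no peak there. Grey cells fall in H1f1, H1f6, H3c4, H3c11 and H4c2 only, in both genotypes for H1f6, H3c4 and H4c2 and in synHPRT1 alone for H1f1 and H3c11.

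Histone types differed in level within each library. H2B members were highest, at a mean percentile of 59.4 ± 5.62 (SD, n = 12), then H2A at 55.7 ± 4.38, H1 at 54.5 ± 7.87, H3 at 47.6 ± 5.56 and H4 at 44.1 ± 6.18. The SDs are spreads between libraries, which move all types together, so the contrast was made within libraries. Each type was set against the members of the other 4 types in the same library, by exact sign-flip permutation tests with Benjamini-Hochberg adjustment over the 5 types. H2B was higher by 8.84 points and H2A by 4.21, each in 12 of 12 libraries (exact test, adjusted p = 0.00061 for both). With peaks of −log10 q-value 5 or more alone, the H2A difference was 2.08 and no longer passed (exact test, adjusted p = 0.0726), and within 2 kb it was 2.54. H3 differed by -6.33 and H4 by -10.7, each lower in 12 of 12 libraries (exact test, adjusted p = 0.00061 for both). The 4 clones gave differences of 5.68 to 12.04 for H2B, 3.51 to 5.08 for H2A, -7.98 to -5.53 for H3 and -12.9 to -8.73 for H4. For H1 the difference was 1.85, higher in 9 of 12 libraries (exact test, adjusted p = 0.191). These p-values speak of libraries, not of other histone genes, and an exact test over 4 clones alone cannot go below p = 0.125. When peaks shared with a member of another type were left out, only 2 H3 members kept a value and the H3 difference was -1.95 (adjusted p = 0.566, exact test). Only 1 H2A and 1 H2B member kept a value, so this alternative gave no difference for H2A or H2B. The H1 call changed with the way peaks were assigned: H1 passed as higher within 500 bp (8.48, adjusted p = 0.00439), within 2 kb (3.69, adjusted p = 0.00977), over start windows (8.83, adjusted p = 0.0112) and with shared peaks left out (10.8, adjusted p = 0.00586), and as lower with members without a peak set to percentile 0 (-8.27, adjusted p = 0.00146), all by exact tests.

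**Figure D4:**
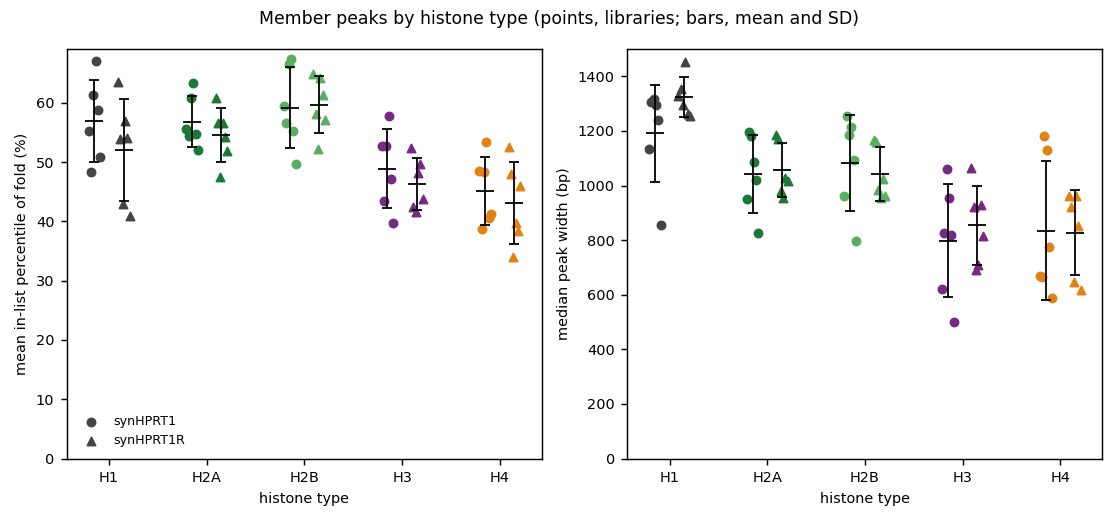
Points are libraries (circles synHPRT1, triangles synHPRT1R) and bars the mean and SD of 6; the left panel gives the mean in-list percentile of fold and the right panel the median width in bp of the strongest peak, by histone type. H3 and H4 lie below H2A and H2B in percentile, and H1 peaks are the widest by median.

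H1 peaks were the widest by median, a difference that was not tested. The median strongest peak was 1258 ± 146 bp (SD, n = 12) in H1, 1049 ± 117 in H2A, 1062 ± 137 in H2B, 826 ± 173 in H3 and 831 ± 202 in H4. Among the core types the order of widths broadly followed that of levels, wide and high in H2A and H2B and narrow and low in H3 and H4, while H1 had the widest peaks at a middle level. For H2A and H2B a single peak often covered a pair of genes. The H1 widths also include peaks shared with other types, in H1f1 (median 1521 bp), H1f4 (1582 bp) and H1f6 (1303 bp). H1f2, H1f3 and H1f5, whose regions lay near no other member, had medians of 1193.5, 1298.5 and 1168 bp.

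Where the peaks lay around the start also differed by type. A base 150 bp into the gene lay under a peak in 93.2% of gene and library combinations for H4 and in 82.5% for H3, the highest points of their profiles. Coverage of the 500 bp before and after the start, a comparison added after the data were seen, was 9.38% ± 4.53 before and 63.8% ± 7.84 after in H1 (difference 54.4, higher after in 12 of 12 libraries). In H4 it was 37.9% before and 82.7% after (difference 44.8, 12 of 12 libraries). In H3 it was 43.6% and 63.8% (difference 20.2, 12 of 12 libraries). H2B went the other way, with 89.8% before and 77.6% after (difference -12.1, lower after in 12 of 12 libraries). All 4 had an adjusted p = 0.00061 by exact sign-flip permutation tests. In H2A, 75.7% before and 79.5% after differed by 3.81 (exact test, adjusted p = 0.0508). The bases before many H2A and H2B starts are those of the partner gene.

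**Figure D5:**
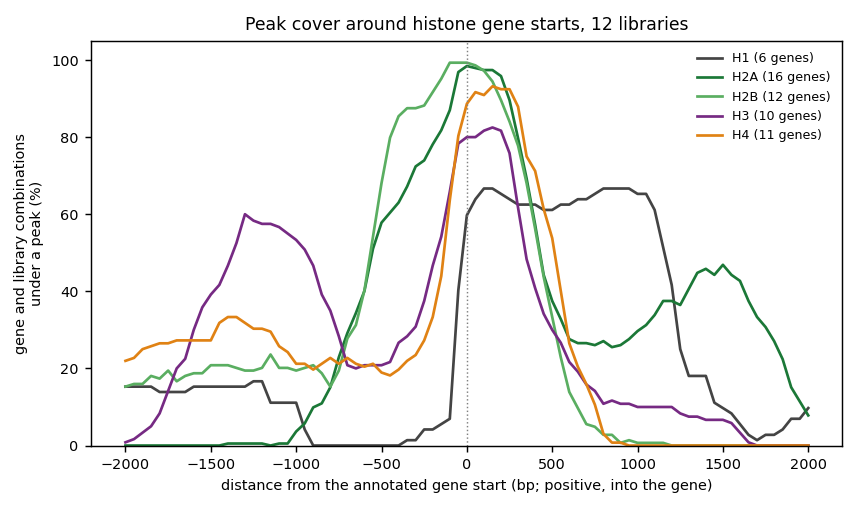
The horizontal axis is the distance from the annotated start in bp, positive into the gene, and the vertical axis the percent of gene and library combinations under a peak, by histone type. H2A and H2B are covered on both sides of the start, H4 mostly after it, and H3 has its highest point 150 bp after the start and a further rise in the bases before it, with 53.3% at 1 kb before against 10% at 1 kb after, while the H1 curve rises at the start and stays near its highest value of 66.7% for about 1 kb.

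H2A and H2B genes are often paired back to back. Among members with an annotated start there were 8 divergent pairs with starts within 1 kb, each of an H2A with an H2B gene. Their starts were 164 to 249 bp apart (median 179). The 7 members without a start window could not be paired, so the count may be too low. They include H2bc4 beside H2ac6, H2bc21 beside H2ac20, H3c7 beside H2bc9 and H3c1 beside H4c1. In 7 of the 8 pairs 1 peak covered both starts in all 12 libraries, and for H2bc7 with H2ac7 in 11. The summit lay between the starts in 61 of 96 pair and library combinations (63.5%). Every H2A and H2B member had a peak within 1 kb in all 12 libraries, and in 15 of 16 H2A and 13 of 13 H2B genes with an annotated start a peak covered the start window itself in all 12.

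By the start window alone, fewer members were listed in every library. Of the 56 with an annotated start, 41 had it covered in all 12 libraries, 14 in 1 to 11 and 1, H1f6, in none; over other protein-coding genes with a start the share in all 12 was 44.9%. For H1 the count was 2 of 6, for H3 4 of 10 and for H4 7 of 11. H3c10 showed the gap most plainly: it had a peak within 1 kb in 12 libraries, in 11 of them the strongest peak of H2bc13 and H2ac13, and its own start was covered in 4. By the peaks over starts alone, the mean percentile was highest in H1, at 56.2 ± 11.6 (SD, n = 12), then 54.6 in H2B, 51.3 in H2A, 40.4 in H3 and 38.5 in H4, so H2B was highest among the core types only.

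Among the H1 genes, which encode the linker histones, H1f2 and H1f4 were highest. H1f2 was at percentiles of 58.3 to 82.9 (median 70.2) in synHPRT1 and 55.6 to 76.0 (median 70.1) in synHPRT1R. H1f4 was at 48.5 to 73.2 (median 71.2) in synHPRT1 and 52.1 to 91.1 (median 68.6) in synHPRT1R. The genotypes overlapped in both genes. H1f3 and H1f5 averaged 57.3 and 46.1, and in H1f5 the start was covered in 9 libraries. H1f1 had a peak within 1 kb in 3 synHPRT1 and 6 synHPRT1R libraries (Fisher's exact test, p = 0.182). Its percentiles were 0.174, 21.4 and 38.3 in the 3 synHPRT1 libraries and 2.60 to 33.3 (median 23.3) in synHPRT1R. In 7 of the 9 libraries its strongest peak was that of its neighbours H4c1 and H3c1, and a peak covered the H1f1 start in 2 libraries. H1f6 counted as listed in synHPRT1 clone 1 replicate 3 alone, at 76.6. That peak was the one over H4c3, at 1303 bp its widest in any library, and it covered 0% of the H1f6 gene.

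Among the H2A genes H2ac6 was highest. It was at 78.9 to 95.8 (median 84.9) in synHPRT1 and 66.5 to 93.5 (median 81.5) in synHPRT1R, with in-list ranks between 2647 and 14974. The same peak, 1332 bp wide by median, served H2bc4, whose gene lies beside it. H2ac21 and H2ac20, on chromosome 3, shared a peak of 1760 bp by median with H2bc21 and averaged 69.0. The lowest H2A genes were H2ac7 at 28.0 ± 15.0 (SD, n = 12) and H2ac10 at 41.4 ± 12.8. The value of H2ac10 was that of the peak at H3c8, which lies past the end of H2ac10. A separate peak region over H2ac10 itself was listed in 11 libraries. H2ac7 ranged from 3.80 to 52.1 in synHPRT1 and 24.6 to 50.9 in synHPRT1R, so the genotypes overlapped. Both pseudogenes had a peak within 1 kb in all 12 libraries, and each shared it with a coding member, H2ac14 with H2bc14 and H2ac5-ps with H2bc3.

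Among the H2B genes H2bc4 was followed by H2bc9 at 71.7 ± 9.67 (SD, n = 12). A region of 786 bp over H2bc9 and a separate one of 917 bp over H3c7 both lay within 1 kb of H2bc9. Its strongest peak was up to 855 bp wide, so not every value of H2bc9 came from the region over that gene. The lowest were H2bc7, the partner of H2ac7, at 26.5 and H2bc8 at 42.8. H2bc6 has annotated starts at 23585970 and 23621094 on chromosome 13, and a peak covered each in all 12 libraries. The second lies in the region of open chromatin shared with H1f4.

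Among the H3 genes H3c6 was highest and H3c11 lowest. H3c6 was at 54.2 to 89.8 (median 73.7) in synHPRT1 and 72.0 to 94.5 (median 81.8) in synHPRT1R, and the genotypes overlapped. H3c7 was at 53.0 to 83.4 and 67.7 to 91.1, the same peak as H2bc9. H3c11 had a peak in 11 libraries, all but synHPRT1 clone 2 replicate 3, the shortest list, and was at 3.35 to 24.5 in synHPRT1 and 0.168 to 15.8 in synHPRT1R. All its values lay below the lowest value of H3c6. H3c4 had a peak in 8 libraries, 4 of each genotype, at 0.716 to 52.1 and 1.11 to 50.9. The highest values, 52.1 and 50.9, were those of the peak at H2bc7 and H2ac7. The start of H3c4 itself was covered in 7. H3c1 averaged 27.1 and H3c8 41.4, the lowest of the H3 members listed everywhere. The peak of H3c8 also gave the value of H2ac10.

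Among the H4 genes H4c3 stood highest, at 70.1 to 83.9 (median 76.1) in synHPRT1 and 63.6 to 93.2 (median 77.4) in synHPRT1R. H4c11 followed at 67.8 ± 9.37 (SD, n = 12). H4c2 had a peak in 10 libraries, absent from synHPRT1 clone 1 replicate 1 and synHPRT1R clone 2 replicate 2, and was at 1.28 to 22.3 and 0.588 to 15.5. Its peak, where listed, covered its own start in all 10. H4c1 averaged 27.1, on the peak shared with H3c1, and H4c8 29.1.

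Near-identical copies limit what single genes can show, because how reads that align to several places were treated is not given in the sources used. The start windows of H4c17 and H4c18 differed by 3 edits in 300 bases (99% identity), those of H3c15 and H3c14 were 89.7% identical and those of H4c11 and H4c12 87.0%. Aligned at any offset and on either strand, a comparison added after the data were seen, 6 of 1587 pairs of windows that do not overlap in the genome shared an identical stretch of at least 50 bases. The 3 pairs named above were among them. Their stretches were 285 bases for H4c17 with H4c18, 231 for H3c15 with H3c14 and 72 for H4c11 with H4c12. The windows were offset by 1, 15 and 14 bases in these pairs. The other pairs were H2bc23 with H2ac24 (233 bases, on opposite strands), H2ac19 with H2ac18 (219 bases) and H2ac23 with H2ac24 (200 bases). A peak covered the start of H4c18 in 12 libraries and that of H4c17 in 8, and the starts of H3c15 and H3c14 in 12 and 11. The starts of H2ac18, H2ac19, H2ac23, H2ac24 and H2bc23 were covered in all 12. The values of these genes are uncertain to the extent that reads moved between copies.

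Genes that act on the histone genes or their products were listed in every library. All 25 genes of a list of regulators, RNA-processing factors and histone chaperones had a peak within 1 kb in all 12 libraries, with a median percentile of 83.7, beside 80.8 over all other protein-coding genes listed in all 12. The share of other protein-coding genes listed in all 12 was 58.3%. Casp8ap2, a part of the histone locus body, was highest at 99.0, and Ccne1, cyclin E1, was lowest at 46.2. Npat was at 96.7, Hinfp at 93.4 and Slbp at 92.3. Of 12 replication-independent histone genes, whose RNAs carry a poly(A) tail, 9 were listed in all 12 libraries. H2az2 was highest at 95.0, Macroh2a1 (41.3, the lowest) and H1f0 were listed in 11 libraries, and the oocyte linker histone H1f8 in none. The testis genes H2ac1 and H2bc1, just outside the chromosome 13 interval, were listed in 8 libraries each by the same peak, at 24.1. Of the histone genes whose symbols the rule leaves out, H2bu2 (63.2), H2bu1-ps and H2aw (75.4 each) and H4bc24 (57.1) were listed in all 12 libraries and H3f4 in 1.

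Marker genes were read out beside the labelled cell type. Over other protein-coding genes the share with a peak in all 12 libraries was 58.3%, and lists of 10 genes cannot settle a cell type. Of 10 pluripotency genes, 9 had a peak in all 12 libraries and Lin28a in 10. Tfcp2l1 was the highest of these at 83.4 and Nanog the lowest at 15.3. Of 10 fibroblast genes 2 (Fbn1 and Pdgfrb) were listed in all 12, Col1a1 and Twist2 in 11, Col1a2 and Col3a1 in 8, Dcn in 3, Thy1 and Lum in 1 and Postn in none. Of 10 genes of other tissues 3 (Ptprc, Umod and Pou1f1) were listed in all 12, Gfap in 11, Myh6 in 1 and 5 (Alb, Ins2, Cd3e, Hbb-bt and Krt5) in none.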

How the data were processed

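Open chromatin was read from 12 deposited ATAC-seq peak lists, 1 per library, so the authors called peaks library by library. The tools in the submitters' processing notes are MACS2 2.1.0, Bowtie2 2.2.9, SAMtools 1.9, bcl2fastq 2.20 and deepTools 3.5.0, with GRCm38 and mm10 as builds. Not given in the sources used here are their settings and whether reads were shifted for Tn5. The deposited fold is a ratio to local background, and each peak also has a deposited −log10 p-value and a −log10 q-value; the lowest −log10 q-value in a list was 1.30 to 1.33. No read counts were used, so depth is known only as the number of peaks.

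A member was listed where a peak touched the gene or 1 kb on either side by at least 1 bp. In-list percentiles counted ties at 50%. Tests were exact permutation tests (924 splits of 6 against 6), exact sign-flip tests over 12 libraries and, for presence per gene, Fisher's test. P-values of families were adjusted by Benjamini-Hochberg. The software was Python 3.11.15 with scipy 1.17.1, numpy 2.4.6 and pandas 2.3.3; edlib 1.3.9.post1 compared start windows. The tests were checked on simulated data. Named by rule were members listed in fewer than 12 libraries, the 2 highest and 2 lowest of each type, testis genes and near-identical copies; from the lists, genes listed in fewer than 12 libraries and the highest and lowest; other genes were named after their values were seen. Members and lists were chosen with earlier results of these data known. Alternatives were windows of 500 bp and 2 kb, a −log10 q-value of at least 5, lists cut to 38400 peaks, ranking by p-value, unlisted members at 0, unshared peaks, a replicate block and leaving out each library. Start windows, levels against other coding genes, coverage around starts and shared stretches were added after the data were seen.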

Additional observations from a re-analysis of the deposited data

Results flagged for a closer look

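In 58 groups of 6 libraries, 4 had a value set far apart from the other 5 by Dixon's criterion; chance flags about 1 group in 20. H2ac21 in synHPRT1 had a lowest percentile of 51.6, with the others at 65.2 to 73.2. H2bc7 in synHPRT1 had a highest percentile of 52.1, with the others at 3.80 to 21.2. H2bc9 and H3c7 in synHPRT1R, which share 1 peak, had a highest percentile of 91.1, with the others at 67.7 to 75.8.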

How the results depend on the processing

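Of 311 alternative values for 18 results, 279 kept direction and side of the threshold. The genotype difference in members with a peak was 0.667 within 500 bp and 0.667 over start windows; that in percentile was -1.19 with lists of equal length and -0.0491 by p-value; that in width ranged from -37.6 to 43.0 bp as single libraries were left out. None passed the test. The H1 difference was 8.48 within 500 bp, 3.69 within 2 kb, 8.83 over start windows, 10.8 with shared peaks left out, -1.88 by p-value and -8.27 with unlisted members at 0; leaving out single libraries gave 1.25 to 2.87, with adjusted p = 0.0117 (exact test) without synHPRT1R clone 2 replicate 3. The H2A difference was 2.08 with peaks of −log10 q-value 5 or more (exact test, adjusted p = 0.0726), and the H3 difference -1.95 with shared peaks left out, which gave no value for H2A and H2B (1 member each). H2A coverage after minus before the start was 2.71 to 4.62 with single libraries left out, and passed the test without synHPRT1 clone 1 replicate 1, synHPRT1R clone 1 replicate 3 or synHPRT1R clone 2 replicate 1 (4.62, 4.31 and 4.30). Genes with an unadjusted p under 0.05 between genotypes numbered 36 to 69 with single libraries left out, the most without synHPRT1 clone 2 replicate 3. The cause of these changes was not tested.

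With a replicate block the genotype differences were -0.5 members with a peak (p = 0.657), 1.80 in percentile (p = 0.537) and -2.83 bp in width (p = 0.981) by exact permutation tests within replicate number (216 splits); it changed no call. Across genotypes, the mean correlation over members was 0.00712 for libraries of the same number (12 pairs, -0.320 to 0.374). It was -0.00376 for libraries of other numbers (24 pairs, -0.285 to 0.394). Values at the members alone cannot decide whether the numbers mark a shared batch. Shorter lists leave less room for weak peaks: an unlisted member is below the authors' threshold, which is not absence of open chromatin.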
